A study of Homo sapiens with 48 samples.

Results

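The interleukin-6 (IL-6) family was followed at the RNA level in human fibroblasts stimulated with transforming growth factor β (TGFβ) and IL-1β. The genes were the ligands IL6, IL11, LIF and CLCF1, the shared receptor subunit IL6ST, the receptor subunits OSMR, LIFR and IL11RA, and the feedback inhibitor SOCS3. They were chosen by name from the count table, with earlier results of these data known. All 9 were found among 29744 genes, and 8 passed the filter on low counts in each arm of the study, LIFR being the exception. The cells were CRL-4001 skin fibroblasts immortalized with telomerase, in which mNeonGreen had been inserted at the end of the coding sequence of IL11, and the line was grown from a single sorted cell. In the CRISPRko arm the cells expressed Cas9 and received a lentiviral non-targeting guide (H47_Ctrl) or a guide against GLIS3 (H47_KO). In the CRISPRa arm they expressed dCas9–VP64, an inactive Cas9 fused to a transcriptional activator, again with a control guide (VP64_Ctrl) or a GLIS3 guide (VP64_A). Each group was a drug-selected bulk population, so a library averaged over cells with different edits or guide levels. Cells were exposed to TGFβ and IL-1β at 10 ng/ml for 0, 6, 12 or 24 h, giving 16 conditions with 3 libraries each.

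IL-6 family cytokines signal through receptor complexes that contain gp130, the product of IL6ST, paired with a second subunit that sets which ligand is bound. Complex formation activates JAK kinases and the transcription factor STAT3, and SOCS3, itself a STAT3 target, binds gp130 and shuts the signal down. Fibroblasts are a main source of IL-6, LIF and IL-11 in inflamed and fibrotic tissue.

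The promoters of IL6 and IL11 are shown because the 2 ligands carry the results below: IL6 rose in every group with no detected difference between the groups of an arm, and IL11 differed between the groups of the CRISPRa arm. RefSeq start-site windows on GRCh38.p14 were matched for 7 of the 9 genes, not for LIF or CLCF1, and the 250 bases before each start are given 5′ to 3′ on the strand of the gene. IL6 lies on the plus strand of chromosome 7 and IL11 on the minus strand of chromosome 19. Capitals mark letters found by a search of both strands for AP-1 (TGANTCA), STAT (TTCNNNGAA), TEAD (GGAATG), GLI-type zinc finger (TGGGNGGT) and NF-κB (consensus by name) motifs.
IL6 chr7:22726950-22727199: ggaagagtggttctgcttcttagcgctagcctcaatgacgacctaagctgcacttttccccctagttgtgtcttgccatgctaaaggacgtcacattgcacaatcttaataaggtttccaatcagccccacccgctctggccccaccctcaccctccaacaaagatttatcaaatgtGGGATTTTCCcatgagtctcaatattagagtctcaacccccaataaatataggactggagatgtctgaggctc
IL11 chr19:55370464-55370713: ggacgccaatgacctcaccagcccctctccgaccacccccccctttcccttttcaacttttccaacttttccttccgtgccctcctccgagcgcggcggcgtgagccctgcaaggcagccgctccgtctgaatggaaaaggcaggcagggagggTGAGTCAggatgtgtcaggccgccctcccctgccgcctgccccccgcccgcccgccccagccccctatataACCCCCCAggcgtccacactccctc

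In the IL6 window the capitals are an NF-κB match, 73 to 64 bases before the start. In the IL11 window they are an AP-1 match, 96 to 90 bases before the start, and a match to the GLI-type letters on the opposite strand, 25 to 18 bases before it. NF-κB and AP-1 are factor families that IL-1β signalling activates, and GLIS3 is a zinc finger protein related to the GLI factors. Over all 35116 windows of this length, 9.96% held an NF-κB match, 6.57% an AP-1 match, 5.26% a GLI-type match, 6.57% a STAT match and 11.9% a TEAD match. No match overlapped another in these 2 windows, and a match describes letters only. STAT letters were found in 2 of the 3 LIFR windows and in no window of the other 6 genes. The windows of IL6, LIFR and SOCS3 (for SOCS3 chr17:78360926-78361175 and chr17:78359668-78359917) do not hold the bases just before the GENCODE start of their gene. Those bases were not searched. The IL6 window and the 3 LIFR windows lie inside the GENCODE span of the gene, so the distances given are from the RefSeq start.

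On GRCh38 (GENCODE) the genes lie at chr7:22725884-22732002 (IL6), chr19:55364382-55370463 (IL11), chr22:30240453-30246759 (LIF), chr11:67364168-67374177 (CLCF1), chr5:55935095-55995022 (IL6ST), chr5:38845858-38945596 (OSMR), chr5:38474668-38608354 (LIFR), chr9:34652162-34661902 (IL11RA) and chr17:78356778-78360077 (SOCS3). OSMR and LIFR are neighbours on chromosome 5, and IL6ST lies on the same chromosome.

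The libraries held 2321990 to 10661004 estimated counts (median 5139646). All 9 fibroblast markers were detected in each group, and all 3 T cell markers and 4 of 8 macrophage markers were at 0. The other macrophage markers reached at most 2.46 TPM (CSF1R in VP64_A) and the 5 endothelial markers at most 0.615 TPM (PECAM1 in H47_Ctrl). The highest epithelial marker was KRT14 in the CRISPRa arm, up to 78.9 TPM in VP64_A and 12.8 in VP64_Ctrl. In the CRISPRko arm it was CLDN4, up to 2.00 TPM. GLIS3 itself lay between 1.45 and 6.47 CPM in H47_Ctrl, 0.144 and 1.63 in H47_KO, 1.91 and 6.31 in VP64_Ctrl and 16.6 and 36.7 in VP64_A. CPM here are read counts scaled to a common library size (TMM) within each arm. The GLIS3 RNA difference in the CRISPRko arm passed the test at 0 h (log2 fold change -2.55, SE 0.63, edgeR adjusted p = 0.0355) and at no later time (at 24 h a log2 fold change of -1.17, SE 0.46, adjusted p = 0.383). In the CRISPRa arm the titles and descriptions of the samples name opposite groups as the control, and a cell-line field marks every sample of both arms as a GLIS3 knockout. The groups are called by their descriptions, which the GLIS3 level follows. Replicate 3 of VP64_Ctrl at 0 h and replicates 3 of H47_KO at 0 and 24 h stood apart, with the lowest shares of counts in their 50 most abundant genes (23.1%, 30.7% and 31.4%, median of all libraries 39.9%). The labels do not say that replicates were separate cultures, so p-values measure the spread between these libraries. In a bulk library more RNA per cell and more cells that express a gene cannot be told apart.

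Before stimulation 3 receptor genes had the most abundant RNAs of the family, and after it the ligand IL6 did. On the transcript-length scale (TPM, the authors' length-corrected unit), the unstimulated H47_Ctrl cells held 29 ± 1.61 TPM of IL6ST, 18.7 ± 2.46 of IL11RA, 14.8 ± 2.12 of OSMR and 10.2 ± 0.951 of CLCF1 (mean ± SD, n = 3 throughout). IL6ST lay above both other receptors in each library, and the ranges of IL11RA and OSMR met, so their order is not beyond the spread. IL6 stood at 3.68 ± 1.71 TPM, IL11 at 1.83 ± 0.703, SOCS3 at 1.09 ± 0.789, LIF at 0.144 ± 0.0926 and LIFR at 0.0631 ± 0.0549. After 6 h IL6 had reached 3778 ± 737 TPM, LIF 318 ± 38.5 and CLCF1 60.5 ± 28.3, while IL11 was at 9.55 ± 2.27.

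Of the summed TPM of the 4 ligands, CLCF1 made up 65% ± 10.3 and IL6 22.6% ± 7.76 in unstimulated H47_Ctrl cells. At 6 h IL6 made up 90.5% ± 1.95 and LIF 7.71% ± 0.924, and at 24 h IL6 made up 95.1% ± 0.640 and CLCF1 3.17% ± 0.683. At rest CLCF1 made up 70.0% ± 8.95 in H47_KO, and less in the CRISPRa arm, 44.6% ± 1.32 in VP64_Ctrl and 39.3% ± 10.0 in VP64_A, where IL11 made up 28.8% ± 3.04 in VP64_Ctrl. IL6 was the largest part in every group at 6, 12 and 24 h. The IL11 share at 24 h was 1.24% ± 0.738 in H47_Ctrl, 1.53% ± 0.484 in H47_KO, 1.32% ± 0.309 in VP64_Ctrl and 3.69% ± 1.12 in VP64_A.

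Most of the family was higher at 6 h than at 0 h in every group. Of the 8 genes tested, 7 differed from 0 h at 6 h, 7 at 12 h and 5 at 24 h in H47_Ctrl, all higher, by edgeR's quasi-likelihood test at a Benjamini-Hochberg adjusted p under 0.05, where 15.9%, 19.6% and 10.3% of all genes tested did. In H47_KO the counts were 7, 7 and 5, all higher, against 23.9%, 27.4% and 15.8% of all genes. In VP64_Ctrl they were 6, 6 and 6, against 28.8%, 26.8% and 16%, and in VP64_A 7, 6 and 6, against 17.4%, 19.7% and 13.6%. Without the 3 libraries that stood apart there were 19 calls over the 3 times in H47_KO, with CLCF1 at 24 h lost (0.57, adjusted p = 0.123) and IL11RA at 24 h gained as lower (-0.98, adjusted p = 0.0186), and 19 in place of 18 in VP64_Ctrl, with SOCS3 at 12 h lost (0.90, adjusted p = 0.149) and IL6ST at 6 and 12 h gained. At 24 h 1 of the 6 in each CRISPRa group was lower, the receptor gene IL11RA. The median log2 fold change of the 8 genes at 6 h was 2.38 in H47_Ctrl and 2.20 in VP64_A, beside -0.032 and -0.013 over all genes tested. As the genes were chosen with earlier results of these data known, these counts and medians only describe them.

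**Figure D1:**
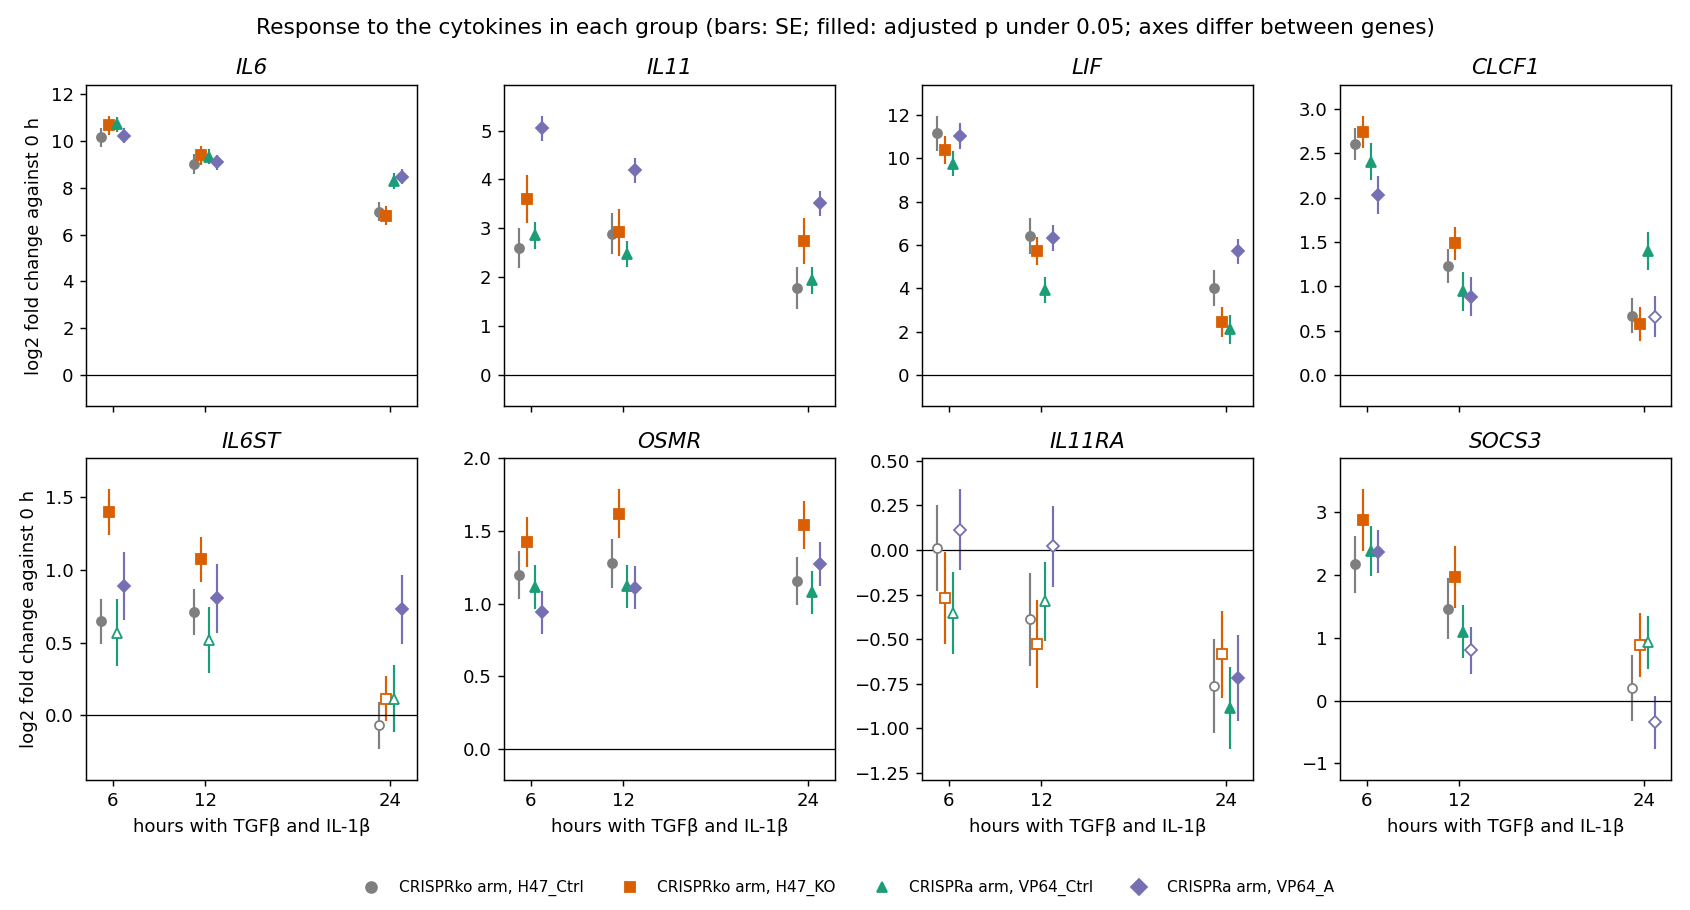
Log2 fold change against 0 h (y axis, with SE) at 6, 12 and 24 h (x axis, hours) for the 8 tested genes in the 4 groups, with filled symbols where the adjusted p was under 0.05 and a y axis of its own for each gene. IL6 lay between 6.80 and 10.7 in all groups, OSMR stayed between 0.94 and 1.62 at each time, and IL11 in VP64_A (5.04, 4.19 and 3.51) lay above the other groups.

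IL6, the founding ligand of the family, had the highest level of any member after stimulation and rose in all groups. In H47_Ctrl the 3 libraries held 3.24, 1.29 and 2.16 CPM at 0 h, 1372, 3286 and 3157 at 6 h, 1383, 992 and 1190.3 at 12 h and 298, 283 and 288 at 24 h. Every stimulated library lay far above every unstimulated one, and replicate 1 at 6 h lay below the other 2. The log2 fold change against 0 h was 10.14 (SE 0.41, adjusted p = 1.53e-18) at 6 h and 6.97 (SE 0.41, adjusted p = 1.05e-14) at 24 h. In H47_KO IL6 went from 0.884, 1.44 and 3.42 CPM at 0 h to 2839.9, 3832 and 3087 at 6 h and 287, 216 and 174 at 24 h. In VP64_Ctrl IL6 went from 3.23, 1.91 and 2.25 CPM at 0 h to 3223, 4399 and 4903 at 6 h and 935, 818 and 579 at 24 h. In VP64_A it went from 3.43, 2.89 and 2.97 CPM at 0 h to 2964, 4211 and 4039 at 6 h and 1341, 971 and 1035 at 24 h. The 24 h level was between 174 and 298 CPM with CRISPRko and between 579 and 1341 CPM with CRISPRa, on scales set within each arm. These levels were not tested against each other, and the IL6 responses of the 2 control populations, compared below, did not differ by the test. The fall from 6 to 24 h passed the test in every group, from -3.85 (SE 0.28) in H47_KO to -1.74 (SE 0.26) in VP64_A on the log2 scale.

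LIF, a ligand that signals through LIFR and gp130, fell back furthest after its peak. In H47_Ctrl the estimated counts were 4, 1 and 1 at 0 h, and the levels were 525, 1072 and 912 CPM at 6 h, 29.8, 40.2 and 24.7 at 12 h and 5.90, 7.48 and 4.99 at 24 h. The 6 h libraries lay above all others, and the 24 h libraries still lay above the unstimulated ones. LIF was higher than at 0 h at all 3 times in all 4 groups, with a log2 fold change at 6 h between 9.75 (SE 0.57) in VP64_Ctrl and 11.14 (SE 0.81) in H47_Ctrl. These folds rest on at most 13 counts in an unstimulated library. At 24 h in H47_KO the log2 fold change was 2.46 (adjusted p = 0.0027), 4.77 without replicate 3 at 0 h, and not past the test with only the libraries compared (2.44, adjusted p = 0.0627). In VP64_Ctrl it was 2.11 (adjusted p = 0.0144), 4.05 without replicate 2 at 0 h, and not past the test without replicate 1 at 0 h (1.51, adjusted p = 0.0984) or replicate 3 at 24 h (1.86, adjusted p = 0.0808) or with only the libraries compared (2.13, adjusted p = 0.0708). Between 6 and 24 h the log2 change of LIF was -7.13 in H47_Ctrl, -7.94 in H47_KO, -7.65 in VP64_Ctrl and -5.32 in VP64_A. The 24 to 6 h contrast called 6 of 8 genes in H47_Ctrl, 5 in H47_KO, 5 in VP64_Ctrl and 6 in VP64_A, all lower, against 14.6%, 24.2%, 18.4% and 12.5% of all genes.

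**Figure D2:**
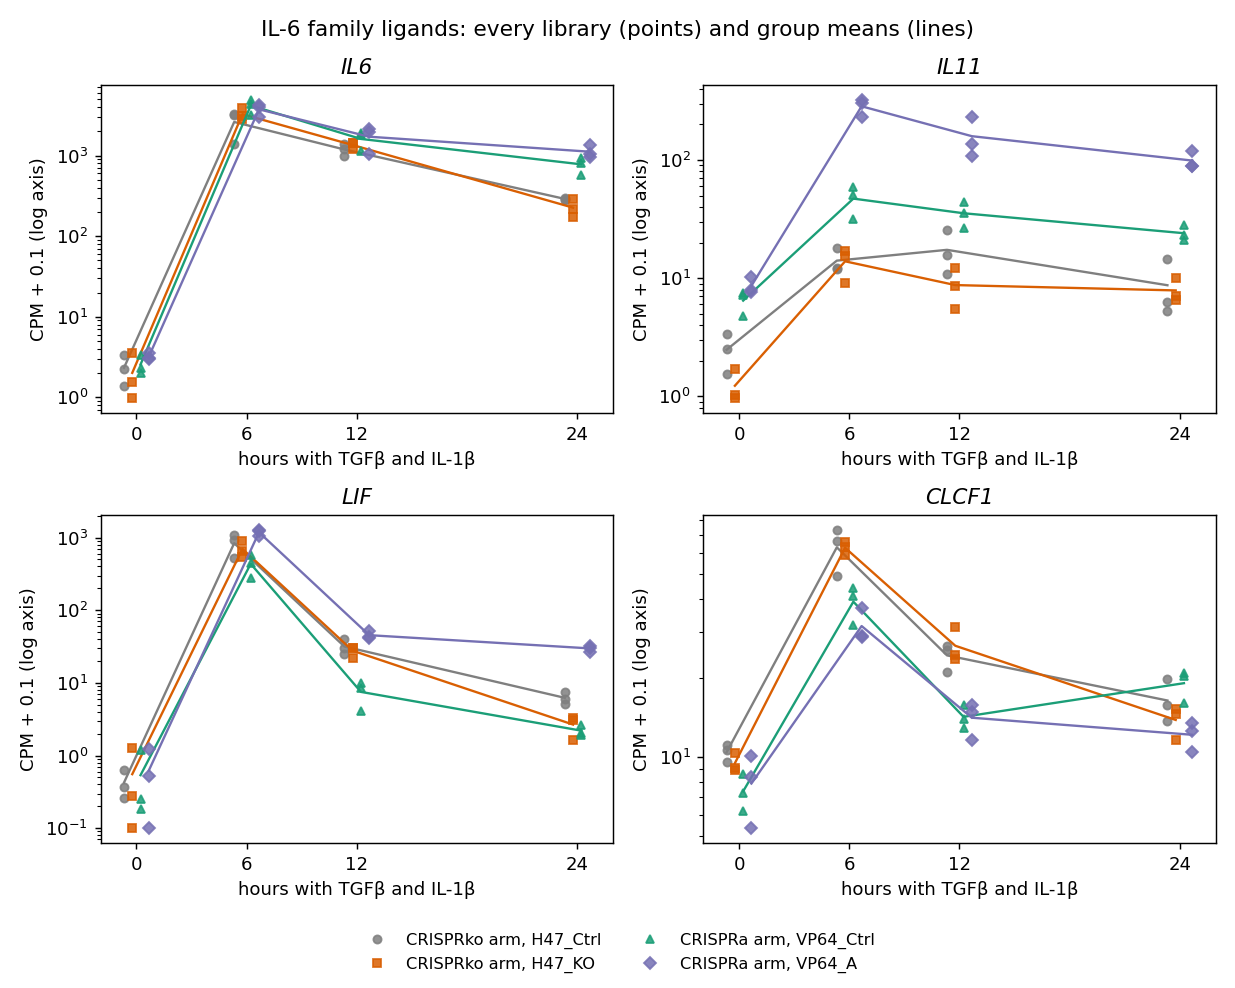
CPM + 0.1 on a log axis (y) against hours with TGFβ and IL-1β (x) for the 4 ligands, with 1 point per library, 3 libraries per condition and lines through the group means. All 4 ligands were highest at 6 h except IL11 in H47_Ctrl, LIF fell back most, and the VP64_A points of IL11 lay above all other groups from 6 h on.

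IL11, which signals through IL11RA and gp130 and carries the fluorescent tag in these cells, was a low-abundance RNA in the CRISPRko arm. In H47_Ctrl it stood at 2.43, 1.45 and 3.24 CPM at 0 h, 11.9, 17.9 and 12 at 6 h, 25.4, 10.8 and 15.6 at 12 h and 5.14, 14.5 and 6.18 at 24 h. All stimulated libraries were above the unstimulated ones, and the 3 stimulated times overlapped. The log2 fold change was 2.59 (SE 0.41, adjusted p = 9.32e-06) at 6 h and 1.79 (SE 0.43, adjusted p = 0.00455) at 24 h. Without replicate 2 at 24 h, the highest of the 3, the latter no longer passed (1.27, adjusted p = 0.0745). In H47_KO the levels were 1.59, 0.865 and 0.922 CPM at 0 h, 15.4, 16.8 and 9.04 at 6 h, 5.32, 8.56 and 12 at 12 h and 6.90, 10.0 and 6.38 at 24 h. IL11 rose there too at all 3 times, by 3.60 (SE 0.48), 2.92 (SE 0.48) and 2.75 (SE 0.47) on the log2 scale.

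In VP64_Ctrl IL11 stood at 7.36, 4.64 and 7.04 CPM at 0 h, 31.8, 50.7 and 58.5 at 6 h, 26.6, 35.6 and 43.8 at 12 h and 27.8, 20.7 and 23.1 at 24 h. In VP64_A it stood at 10.1, 7.80 and 7.58 CPM at 0 h, 229.9, 323 and 302 at 6 h, 233, 107 and 137 at 12 h and 88.3, 119 and 88.8 at 24 h. The 2 groups were close at 0 h and far apart at each later time. At 0 h every VP64_A library lay just above every VP64_Ctrl library, and 26.6% of all genes tested showed no overlap there. Against its own 0 h, IL11 rose in VP64_A by 5.04 (SE 0.25) at 6 h and 3.51 (SE 0.26) at 24 h, and in VP64_Ctrl by 2.86 (SE 0.27) and 1.94 (SE 0.27). The fall from 6 to 24 h passed the test in both groups of the CRISPRa arm, with log2 changes of -1.53 and -0.92, and in neither group of the CRISPRko arm. The VP64_Ctrl call was lost without replicate 2 (-0.83, adjusted p = 0.0527) or 3 (-0.76, adjusted p = 0.061) at 6 h. In H47_Ctrl (-0.81) the fall passed without replicate 2 at 24 h (-1.34, adjusted p = 0.0203), and in H47_KO (-0.85) without replicate 3 at 6 h (-1.10, adjusted p = 0.0479) or with no filter (-0.84, adjusted p = 0.0446).

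CLCF1, a ligand that acts through the CNTF receptor, was expressed before stimulation and peaked at 6 h. In H47_Ctrl it stood at 10.5, 10.9 and 9.45 CPM at 0 h, 73.3, 48.8 and 66.8 at 6 h, 21, 26.5 and 25.4 at 12 h and 15.6, 13.6 and 19.7 at 24 h. The 6 h libraries lay above all the others and none of the stimulated libraries overlapped those at 0 h. The log2 fold change at 6 h was 2.60 (SE 0.18, adjusted p = 3.42e-13) in H47_Ctrl and between 2.03 and 2.74 in the other 3 groups. CLCF1 passed the test in 11 of its 12 comparisons with 0 h, the exception being VP64_A at 24 h (log2 fold change 0.66, SE 0.23, adjusted p = 0.0527), which passed without replicate 2 at 0 h (0.88, adjusted p = 0.0166). The 24 h calls of the CRISPRko arm were narrow. In H47_Ctrl (log2 fold change 0.67, SE 0.20, adjusted p = 0.0228) the call was lost without any 1 of the 3 libraries at 0 h or replicate 3 at 24 h (adjusted p between 0.0516 and 0.201). In H47_KO (log2 fold change 0.58, SE 0.19, adjusted p = 0.0312) it was lost without replicate 1 or 2 at 0 h or replicate 1 or 3 at 24 h (adjusted p between 0.0709 and 0.132), without the filter on low counts or with only the libraries compared. In VP64_A at 12 h (log2 fold change 0.88, SE 0.22, adjusted p = 0.0042) it was lost without replicate 1 at 0 h (0.64, adjusted p = 0.0597). CNTFR, the gene of the ligand-binding subunit of that receptor, had 0 counts in all 48 libraries.

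IL6ST, which encodes the shared subunit gp130, changed by less than IL6, LIF and IL11 and had no detected difference from 0 h at 24 h in 3 of the 4 groups. In H47_Ctrl it stood at 63.2, 60.8 and 57 CPM at 0 h, 86.2, 114 and 83.2 at 6 h, 101, 105 and 91 at 12 h and 53.9, 56.6 and 62.5 at 24 h. The 6 and 12 h libraries lay above those at 0 h, and those at 24 h overlapped them. The log2 fold change was 0.65 (SE 0.15, adjusted p = 0.0027) at 6 h and -0.068 (95% interval -0.38 to 0.24) at 24 h. In H47_KO, which started at 39.8, 44.9 and 45.4 CPM, the 6 h change was 1.39 (SE 0.16, adjusted p = 2.53e-08). In VP64_Ctrl the unstimulated libraries held 51.9, 40.3 and 101 CPM, the third being the library that stood apart, and IL6ST passed the test at no time. Without that library it did at 6 h (1.01, adjusted p = 0.000701) and 12 h (0.96, adjusted p = 0.00105), and without replicate 2 at 6 h it did at 6 h (0.71, adjusted p = 0.0457). With no filter on low counts both also passed (0.56, adjusted p = 0.0115 at 6 h and 0.52, adjusted p = 0.022 at 12 h).

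In VP64_A IL6ST rose from 49.9, 39 and 44 CPM at 0 h to 102, 75.4 and 68.6 at 6 h, 95.9, 76 and 61.9 at 12 h and 72.9, 83.4 and 65.2 at 24 h. It passed the test at each time, with log2 fold changes of 0.89, 0.80 and 0.73 (adjusted p = 0.00693, 0.0134 and 0.0352). These calls depended on single libraries. At 6 h the call was lost without replicate 1 at 6 h (0.70, adjusted p = 0.0652). At 12 h it was lost without replicate 2 at 0 h (0.72, adjusted p = 0.0609) or replicate 1 at 12 h (0.64, adjusted p = 0.0769). At 24 h it was lost without replicate 2 or 3 at 0 h or replicate 1 or 2 at 24 h (adjusted p between 0.0799 and 0.134).

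OSMR, the subunit that pairs with gp130 to bind oncostatin M, showed a sustained increase. In H47_Ctrl it stood at 36.3, 39.1 and 30.8 CPM at 0 h, 82.7, 74 and 88.6 at 6 h, 105, 68.4 and 86.3 at 12 h and 85.1, 77.6 and 74.9 at 24 h. All stimulated libraries lay above the unstimulated ones, and the stimulated times overlapped. OSMR was higher at all 3 times in all 4 groups, with log2 fold changes between 0.94 (SE 0.15) in VP64_A at 6 h and 1.62 (SE 0.17) in H47_KO at 12 h, and each of these 12 calls held when any 1 library was left out. The difference between 24 and 6 h passed the test in no group, with values between -0.043 (95% interval -0.36 to 0.28) in H47_Ctrl and 0.33 (0.041 to 0.63) in VP64_A. OSM, the gene of its ligand, had at most 1 count in a library.

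IL11RA, the receptor subunit specific to IL-11, was lower, not higher, where it passed the test. In VP64_Ctrl it stood at 13.5, 25.6 and 19.8 CPM at 0 h, 16.9, 16.1 and 11.6 at 6 h, 17.8, 19 and 10.8 at 12 h and 11.8, 11 and 9.20 at 24 h. The 24 h libraries lay below those at 0 h, and the other times overlapped them. At 24 h IL11RA was lower in VP64_Ctrl (log2 fold change -0.88, SE 0.23, adjusted p = 0.00643) and in VP64_A (log2 fold change -0.72, SE 0.24, adjusted p = 0.0422), where it had gone from 16.1, 17.1 and 15.8 CPM to 9.14, 9.95 and 10.6. The VP64_Ctrl call was lost without replicate 2 at 0 h (-0.65, adjusted p = 0.0698), and that of VP64_A without any 1 of its 6 libraries (adjusted p between 0.0656 and 0.142). In the CRISPRko arm the 24 h differences did not pass the test, at -0.76 (SE 0.26, adjusted p = 0.0634) in H47_Ctrl and -0.58 (SE 0.24, adjusted p = 0.10) in H47_KO. That of H47_Ctrl passed with no filter on low counts (-0.77, adjusted p = 0.0405) and with only the libraries compared (-0.79, adjusted p = 0.0266). Both passed without 1 library, replicate 2 of H47_Ctrl at 24 h (-1.02, adjusted p = 0.0226) and replicate 3 of H47_KO at 24 h (-0.92, adjusted p = 0.017). Against 6 h, IL11RA was lower at 24 h in H47_Ctrl (log2 fold change -0.77, SE 0.26, adjusted p = 0.0446) and VP64_A (log2 fold change -0.83, SE 0.25, adjusted p = 0.0226). The first call was lost without replicate 1 or 2 at 6 h, replicate 1 or 3 at 24 h or with only the libraries compared, and the second without replicate 3 at 6 h or any of the 3 libraries at 24 h (adjusted p up to 0.301 and 0.118, with log2 changes of -0.51 and -0.67 in those fits). At 6 h the difference from 0 h was between -0.35 and 0.11 in the 4 groups.

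LIFR, the subunit that binds LIF, was near the detection limit. It had 0 to 18 counts in a library, at most 0.411 TPM, and no count in the 3 H47_KO libraries at 0 h, where 3 counts would be the most that 0 allows for a library by counting error alone. No test was made for it. IL6R, the IL-6 binding subunit, was also near 0, with 0 to 10 counts in a library.

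SOCS3, the feedback inhibitor, rose at 6 h and had fallen again by 24 h, at a low level. In H47_Ctrl it stood at 1.22, 0.805 and 3.24 CPM at 0 h, 7.04, 7.76 and 7.12 at 6 h, 3.31, 3.92 and 6.17 at 12 h and 2.47, 1.40 and 1.43 at 24 h, on 3 to 49 counts in a library. Only the 24 h libraries overlapped those at 0 h. SOCS3 was higher at 6 h in all 4 groups, with log2 fold changes between 2.17 (SE 0.45) and 2.87 (SE 0.49), and at 24 h in none (from -0.35 to 0.93). At 12 h it passed in H47_KO (log2 fold change 1.97, SE 0.49, adjusted p = 0.00199), in H47_Ctrl (log2 fold change 1.46, SE 0.49, adjusted p = 0.0297) and in VP64_Ctrl (log2 fold change 1.10, SE 0.42, adjusted p = 0.0487), where the libraries overlapped. The H47_Ctrl call was lost without replicate 1 (1.25, adjusted p = 0.132) or 2 (1.11, adjusted p = 0.165) at 0 h or replicate 3 at 12 h (1.18, adjusted p = 0.156). That of VP64_Ctrl was lost without replicate 2 or 3 at 0 h or replicate 1 or 2 at 12 h (adjusted p between 0.0673 and 0.363, the log2 fold change being 0.64 without replicate 1 at 12 h), and also with DESeq2 size factors, without the filter or with only the libraries compared. From 6 to 24 h SOCS3 fell in every group, with log2 changes of -1.97, -1.99, -1.46 and -2.72, a call that was lost in VP64_Ctrl without replicate 2 at 6 h (-1.09, adjusted p = 0.0964).

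**Figure D3:**
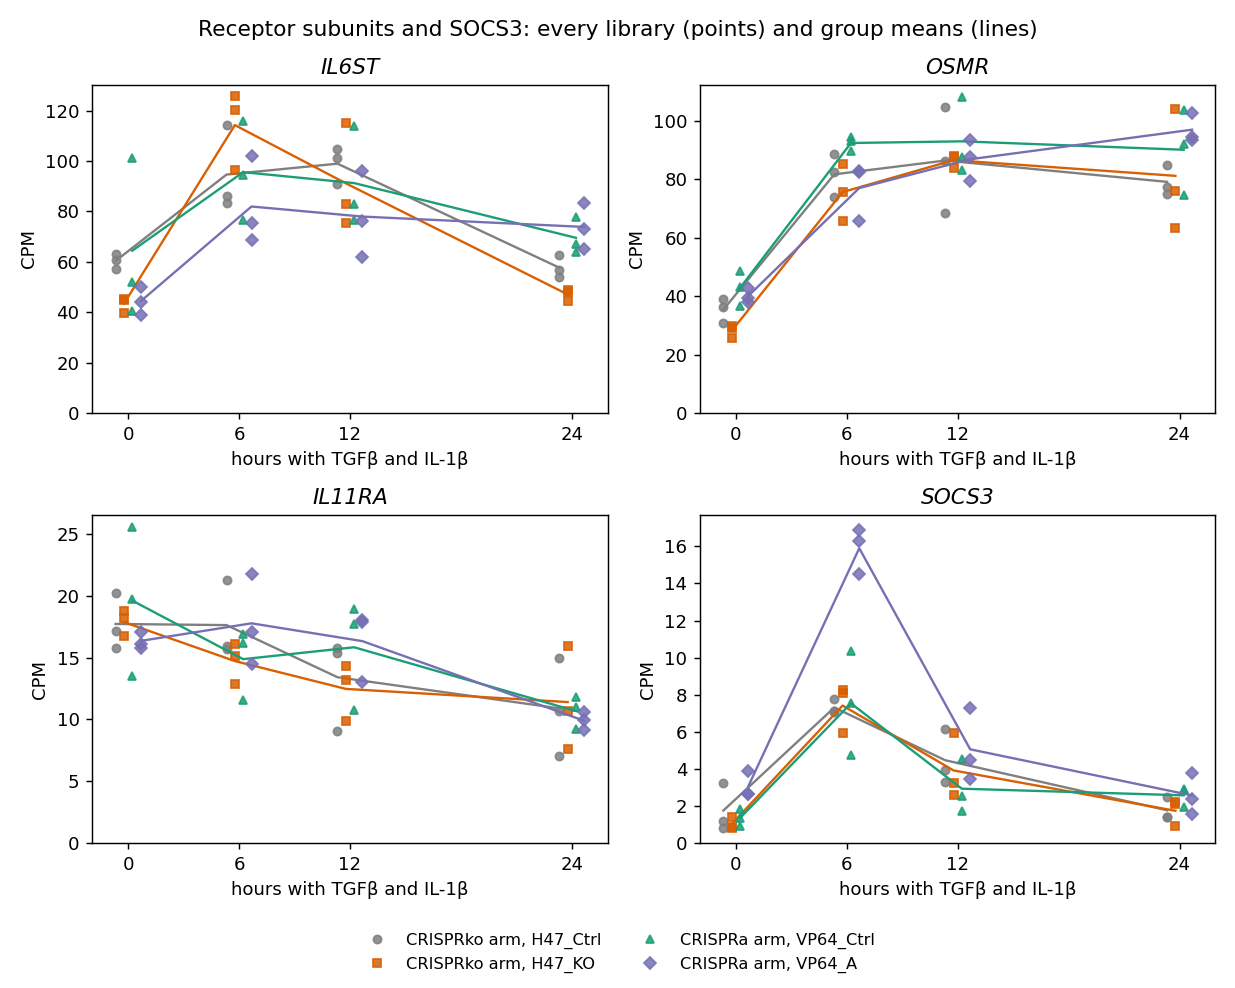
CPM (y axis, from 0) against hours with TGFβ and IL-1β (x axis) for IL6ST, OSMR, IL11RA and SOCS3, with 1 point per library, 3 libraries per condition and lines through the group means. OSMR stayed up from 6 to 24 h, IL6ST and SOCS3 were highest at 6 or 12 h in most groups, and the third VP64_Ctrl point of IL6ST at 0 h (101 CPM) lay apart from the other 2.

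The GLIS3 guide of the CRISPRko arm was compared with its control at each time. In this fit GLIS3 itself was called at 0 h only (edgeR adjusted p = 0.0925, 0.507 and 0.383 at 6, 12 and 24 h). A member not called here is therefore not shown to be independent of GLIS3. By edgeR 0 of the 8 genes differed between H47_KO and H47_Ctrl at 0, 6, 12 or 24 h, where 0.301%, 0.319%, 0.0821% and 0.21% of all genes did. At an unadjusted p under 0.05 there were 1, 0, 1 and 1 genes, beside 1253, 1228, 842 and 1096 of the 10962 genes tested, and DESeq2 also called 0 of the 8. IL11 was lower by point estimate at 0 h (log2 fold change -1.04, 95% interval -2.07 to -0.011) and 12 h (-1.02, -1.71 to -0.33, adjusted p = 0.362), and not at 6 h (-0.036, -0.73 to 0.66) or 24 h (-0.082, -0.81 to 0.64). The libraries of the 2 groups overlapped at each of these times. LIF at 24 h stood at 5.90, 7.48 and 4.99 CPM in H47_Ctrl and 3.00, 1.52 and 3.19 in H47_KO, which did not overlap, on 5 to 41 counts in a library. Its log2 fold change was -1.07 (SE 0.41, 95% interval -1.87 to -0.27, adjusted p = 0.377). Between these groups at 24 h 2 of the 8 genes, and 13.5% of all genes tested, did not overlap. At 6 h, where LIF had 1685 counts or more in each library, the difference was -0.26 (-0.73 to 0.21). The IL6 differences lay between -0.36 (-0.92 to 0.20) at 24 h and 0.32 (-0.23 to 0.87) at 6 h. For IL6ST, the gene with unadjusted p under 0.05 at 0 h, the difference there was -0.48 (SE 0.16, adjusted p = 0.181).

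The response to the cytokines, that is the change from 0 h, was then compared between the 2 groups of the CRISPRko arm. By edgeR 0 of 8 genes differed at 6, 12 or 24 h, where 0.00912%, 0% and 0% of all genes did, with 1, 0 and 0 at an unadjusted p under 0.05 and 0 by DESeq2. Of the 10962 genes tested, 869, 709 and 616 had an unadjusted p under 0.05. The intervals were wide for the ligands that start near 0. For IL11 at 24 h the difference was 0.96 (95% interval -0.30 to 2.22), and for LIF -1.55 (-3.67 to 0.57). That of OSMR was 0.39 (-0.077 to 0.85).

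In the CRISPRa arm, where groups are named by their descriptions, 2 of the 8 genes were higher in VP64_A than in VP64_Ctrl at 6, 12 and 24 h, IL11 and LIF each time. Over all genes tested 3.76%, 4.31% and 4.13% were called at these times. At 0 h, where 9.41% of all genes were called, edgeR and DESeq2 called 0 of the 8, and 2 (IL6ST and SOCS3) had an unadjusted p under 0.05. That p was reached by 2518 of the 10980 genes tested. IL11 was higher by 2.64 (SE 0.24, adjusted p = 5.15e-09) at 6 h, 2.17 (SE 0.24, adjusted p = 1.9e-07) at 12 h and 2.03 (SE 0.24, adjusted p = 8.19e-07) at 24 h on the log2 scale, that is 6.24-fold, 4.49-fold and 4.08-fold. At 0 h the difference was 0.45 (95% interval -0.11 to 1.01, adjusted p = 0.365).

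LIF held 275, 578 and 451 CPM in VP64_Ctrl and 1051, 1222 and 1270.3 in VP64_A at 6 h. At 12 h the values were 9.87, 8.39 and 3.98 and 51.8, 41.8 and 42.2, and at 24 h 1.80, 1.94 and 2.56 and 30.6, 32.3 and 26.4. At each of the 3 times every VP64_A library lay above every VP64_Ctrl library. As the level fell, the gap narrowed in CPM and widened by point estimate on the log2 scale. The VP64_Ctrl level at 24 h was low (1.80, 1.94 and 2.56 CPM), so the size of the 24 h difference rests on few counts there. The log2 fold change was 1.44 (SE 0.25, adjusted p = 0.000367) at 6 h, 2.55 (SE 0.33, adjusted p = 1.74e-06) at 12 h and 3.77 (SE 0.42, adjusted p = 2.53e-08) at 24 h. All 6 calls of IL11 and LIF held when any 1 library was left out, with adjusted p at most 0.00908. At 0 h LIF had 0 to 13 counts in a library and no difference was detectable (0.17, 95% interval -1.35 to 1.68).

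The other 6 genes did not pass the test between VP64_A and VP64_Ctrl at any time. IL6 differed by -0.16 (95% interval -0.66 to 0.35) at 6 h and 0.52 (0.016 to 1.03) at 24 h, where the libraries did not overlap, and OSMR by -0.26 (-0.56 to 0.032) and 0.11 (-0.18 to 0.40). CLCF1 at 24 h stood at 20.8, 15.9 and 20.3 CPM in VP64_Ctrl and 13.3, 10.3 and 12.5 in VP64_A, which did not overlap, and was lower in VP64_A by point estimate (log2 fold change -0.66, SE 0.22, adjusted p = 0.0923). SOCS3 stood at 1.82, 1.33 and 0.898 CPM in VP64_Ctrl and 2.66, 3.90 and 2.64 in VP64_A before stimulation, which did not overlap either (log2 fold change 1.12, SE 0.40, adjusted p = 0.0628). It stood at 4.73, 10.3 and 7.53 CPM in VP64_Ctrl and 16.9, 14.5 and 16.3 in VP64_A at 6 h, which did not overlap. Its log2 fold change there was 1.11 (SE 0.34, adjusted p = 0.0708), and 1.47, adjusted p = 0.0389, without replicate 2 of VP64_Ctrl at 6 h, or 1.12, adjusted p = 0.0209, with only the libraries compared. At 0 h IL6ST differed by -0.52 (SE 0.23, adjusted p = 0.164), and by -0.77, adjusted p = 0.0289, without replicate 2 of VP64_Ctrl, or -0.51, adjusted p = 0.0479, with no filter on low counts. IL11RA, the receptor subunit for IL-11, differed by -0.096 (95% interval -0.59 to 0.40) at 24 h. Of the 8 genes 2, 4 and 4 did not overlap between these groups at 0, 6 and 24 h, beside 26.6%, 18.5% and 23.4% of all genes tested. With 3 libraries a side, a lack of overlap alone is thus common. The summed level of 6 epithelial markers, of which KRT14 was the highest, also differed in range between these groups, from 14.6 to 78.9 TPM in VP64_A and from 2.17 to 13.4 TPM in VP64_Ctrl, with 2 of the 6 at 0 in every library. Its part in the IL11 and LIF differences was not tested.

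**Figure D4:**
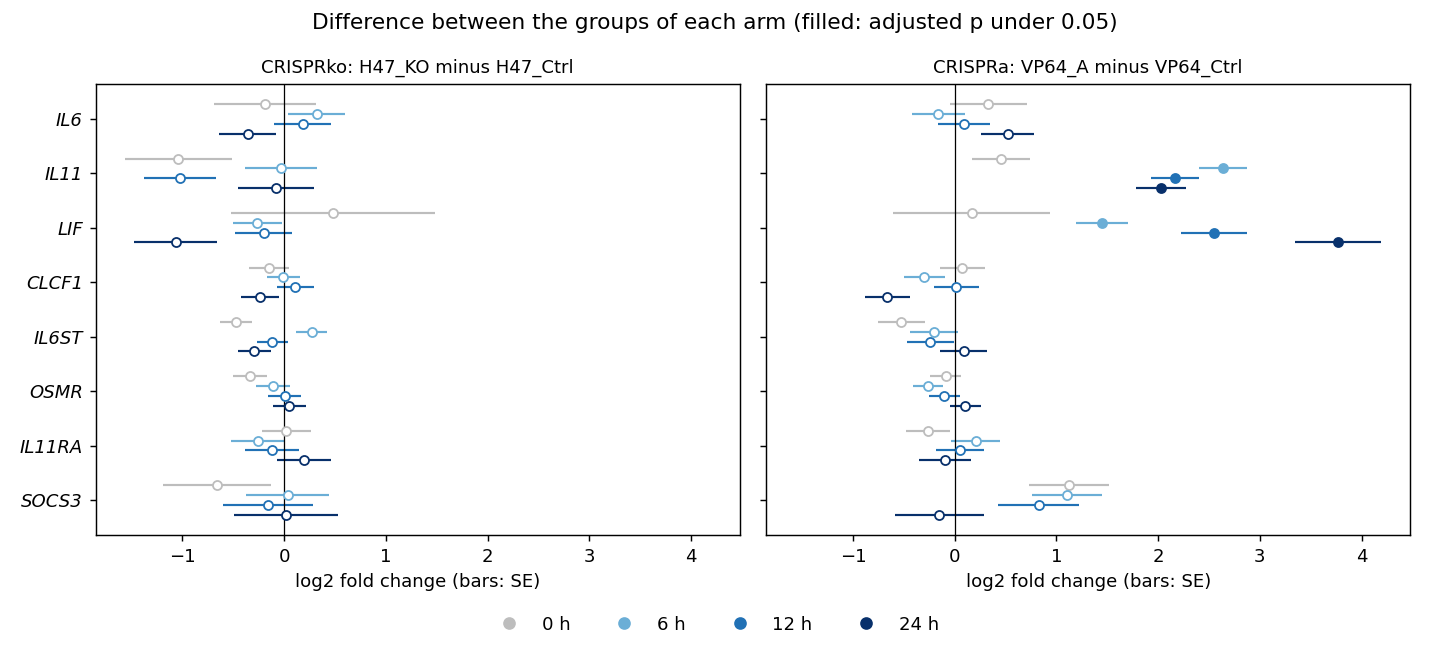
Log2 fold change between the groups of each arm (x axis, with SE) for the 8 tested genes (y axis) at 0, 6, 12 and 24 h, with filled symbols where the adjusted p was under 0.05. The filled symbols are IL11 and LIF at 6, 12 and 24 h in the CRISPRa arm, and all symbols of the CRISPRko arm are open.

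The response to the cytokines differed between VP64_A and VP64_Ctrl for IL11. Of the 8 genes, edgeR called 1 at 6 h, 1 at 12 h and 0 at 24 h (1, 2 and 4 at an unadjusted p under 0.05), where 0.0911%, 0.264% and 0.209% of all genes were called. Unadjusted p-values under 0.05 were found for 1035, 1193 and 781 of the 10980 genes tested. The rise of IL11 was larger in VP64_A by 2.19 (SE 0.37, adjusted p = 0.0189) at 6 h and 1.71 (SE 0.37, adjusted p = 0.0332) at 12 h on the log2 scale. At 24 h it was 1.57 (SE 0.38, adjusted p = 0.0826), and for LIF 3.60 (SE 0.88, adjusted p = 0.114), both called by DESeq2 and with no filter on low counts. The 6 h call was lost without replicate 2 or 3 of VP64_A at 0 h, replicate 2 of VP64_A at 6 h, replicate 3 of VP64_Ctrl at 0 h or replicate 1 of VP64_Ctrl at 6 h (adjusted p between 0.0557 and 0.0897). Replicate 3 of VP64_Ctrl at 0 h is the library that stood apart, and without it the difference was 2.11, adjusted p = 0.0557 at 6 h and 1.65, adjusted p = 0.101 at 12 h. The 12 h call was lost in 9 of 12 such fits, those without any of the 3 VP64_A libraries at 0 h, replicate 1 or 3 of VP64_A at 12 h, replicate 1 or 3 of VP64_Ctrl at 0 h, or replicate 1 or 2 of VP64_Ctrl at 12 h (adjusted p between 0.0568 and 0.124), and with only the libraries compared. The IL11 difference itself stayed between 1.93 and 2.38 at 6 h and between 1.34 and 1.94 at 12 h in all 12 fits.

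A contrast added after the values had been seen set the VP64_A to VP64_Ctrl difference at 24 h against that at 6 h. LIF was well counted at 6 h, but its VP64_Ctrl level at 24 h again rested on few counts. LIF was called (2.33, SE 0.49, adjusted p = 0.022), which is its smaller fall from 6 to 24 h in VP64_A, and 0.137% of all genes were. The call was lost without any of the 3 libraries of either group at 24 h, replicate 1 of VP64_A at 6 h or replicate 2 or 3 of VP64_Ctrl at 6 h (adjusted p between 0.0519 and 0.159), while the value stayed between 2.06 and 2.58. For IL11 the difference was not called (-0.61, 95% interval -1.28 to 0.051). In the CRISPRko arm edgeR and DESeq2 called 0 of 8 genes in this contrast, where 0.0456% of all genes were called, and 1 (IL6ST) had an unadjusted p under 0.05. That p was reached by 1229 of the 10962 genes tested.

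The control populations of the 2 arms, which differ in Cas9 protein and in arm, were set against each other in a fit over all 48 libraries. Their responses differed for 0 of 8 genes by edgeR at 6, 12 and 24 h, where 0.429%, 0.341% and 0.49% of all genes were called, with 0, 1 and 2 genes at an unadjusted p under 0.05 and 0 by DESeq2. Of the 11422 genes tested, 1550, 1250 and 894 had an unadjusted p under 0.05. The IL6 response at 24 h, lower in H47_Ctrl, had a difference of -1.30 (SE 0.54, 95% interval -2.35 to -0.25, adjusted p = 0.487). That of CLCF1 was -0.73 (-1.28 to -0.17).

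Beyond the 9 genes, 45 other genes of the pathway were listed, of which 29 were tested with CRISPRko and 30 with CRISPRa. The genes called at 6, 12 and 24 h against 0 h were 15, 11 and 10 of 29 in H47_Ctrl, beside 15.9%, 19.6% and 10.3% of all genes tested, and 19, 14 and 13 of 29 in H47_KO, beside 23.9%, 27.4% and 15.8%. They were 21, 14 and 11 of 30 in VP64_Ctrl, beside 28.8%, 26.8% and 16%, and 9, 9 and 8 of 30 in VP64_A, beside 17.4%, 19.7% and 13.6%. Most were higher, 11 of 15 at 6 h in H47_Ctrl, 15 of 19 in H47_KO, 17 of 21 in VP64_Ctrl and 8 of 9 in VP64_A. JAK1, the kinase bound to gp130, was higher at all 3 times in all 4 groups, by 1.03 (SE 0.19) at 6 h and 1.77 (SE 0.19) at 12 h in H47_Ctrl on the log2 scale. STAT3 was higher at all 3 times in 3 groups, by 0.84 (SE 0.15) at 6 h in H47_Ctrl, and in VP64_A only at 12 h (0.56, SE 0.15). The genes with the largest rises among those called at 6 h in H47_Ctrl were STAT5A (3.05), the AP-1 subunit JUNB (2.35), the IL-27 receptor subunit IL27RA (1.43) and MYC (1.38). The 4 that fell were the inhibitors SOCS2 (-1.13) and SOCS5 (-0.82), the STAT3 inhibitor PIAS3 (-0.66) and the sheddase ADAM10 (-0.51). SOCS2 and SOCS5 thus fell at the time at which SOCS3 rose, and both were also lower at 24 h in H47_Ctrl (-1.59 and -1.18). Not all other inhibitors fell. Of 6 listed feedback inhibitors tested beside SOCS3, 2 were higher and 3 lower at 6 h in H47_Ctrl. Among the genes higher at 24 h there were EBI3, a subunit of IL-27 (3.56), JUNB (2.15) and TIMP1 (1.35).

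Between H47_KO and H47_Ctrl edgeR called 0 of the 29 pathway genes at each time, with 6, 4, 6 and 4 at an unadjusted p under 0.05. Of all 10962 genes tested, 0.301%, 0.319%, 0.0821% and 0.21% were called, and 1253, 1228, 842 and 1096 had an unadjusted p under 0.05. Between VP64_A and VP64_Ctrl 5 of 30 were called at 0 h (4 higher, 1 lower), 3 at 6 h (2 higher, 1 lower), 2 at 12 h (1 higher, 1 lower) and 2 at 24 h (SOCS2 and SOCS5, both lower), beside 9.41%, 3.76%, 4.31% and 4.13% of all genes tested. The counts at 12 and 24 h are near that background. Before stimulation VP64_A had more HIF1A (1.10, SE 0.21), ADAM10 (1.05, SE 0.26), MYC (0.96, SE 0.19) and STAT3 (0.71, SE 0.15) and less SOCS5 (-0.89, SE 0.17).

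Across the means of the 16 conditions, the genes whose log2 CPM most resembled that of IL6, among 10691 tested in both arms, were IER3, the chemokine genes CXCL2 and CXCL3, IRAK2 and IL1B (Pearson r between 0.985 and 0.991). For LIF they were NINJ1, ABTB2, CHIC2, JMJD6 and MFSD2A (r between 0.968 and 0.984), and for IL11 they included NRBP1, SAT1, STC1 and HN1L (r between 0.890 and 0.911). The order depended on the values used. Over the 48 libraries in place of the 16 means, 4 of the 5 genes for IL6, 3 for IL11 and 2 for LIF stayed among the 5 most alike. Within the family the highest value was that of IL6 and OSMR (r = 0.938), followed by LIF and SOCS3 (0.913) and LIF and CLCF1 (0.889), while IL11 and CLCF1 had 0.309 and IL11 and IL11RA -0.134. These values describe conditions that share libraries, time points and depth, and no test was made of them.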

How the data were processed

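Poly(A) RNA of 48 samples was sequenced. The authors processed the reads with bcl2fastq, FastQC, Trim Galore, STAR, Salmon and DESeq2 on GRCh38, per the labels, and deposited estimated counts and TPM per gene. Versions are not given in the sources used here. The estimated counts, of which 6.38% were not whole, were rounded, and 0 columns were left unmatched. Genes passing filterByExpr (minimum count 10, total 15) were fitted per arm (24 libraries, 8 groups) with edgeR 4.0.16 in R 4.3.3, using TMM scaling, the quasi-likelihood F test and Benjamini-Hochberg adjustment over all genes at 0.05. The control populations were compared in a fit over 48 libraries. Scripts were tested on simulated data. Intervals are 95% from the SE (normal approximation), so one can exclude 0 where the F test does not reach an unadjusted 0.05, and those on counts of 0 cover counting error only. Alternatives were DESeq2 1.42.0, its size factors, no filter, the replicate block, only the libraries compared, and leaving out libraries. Members and lists were chosen with earlier results of these data known. Besides the members and GLIS3, up to 4 called pathway genes per direction, neighbours of the members in the pathway, and the 5 genes most like IL6, IL11 and LIF were named. Some genes that this rule picks are not reported here.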

Additional observations from a re-analysis of the deposited data

Results flagged for a closer look

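The rise of IL11 from 0 h was larger in VP64_A than in VP64_Ctrl by 2.19 at 6 h and 1.71 at 12 h on the log2 scale (SE 0.37 for both, edgeR adjusted p = 0.0189 and 0.0332). The fall of LIF from 6 to 24 h was smaller in VP64_A than in VP64_Ctrl by 2.33 (SE 0.49, edgeR adjusted p = 0.022), in a contrast added after the values had been seen. Each was found by a test of the difference between the groups itself, and each call was lost in some fits with 1 library left out.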

How the results depend on the processing

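Of 106 gene-level results past the threshold, 87 kept it when any 1 library was left out and 19 lost it in at least 1 such fit, as named with each gene. Over all alternatives 80 values in 36 results changed sign, 0 of them called. The 2 calls among the CRISPRa response differences became 4 with DESeq2, 5 with no filter on low counts, 0 without the 3 libraries that stood apart (an alternative chosen after the data were seen) and 0 to 2 with 1 library left out. The cause was not tested. The LIF call in the added contrast of 24 with 6 h became 0 to 1 with 1 library left out. The 5 calls between 24 and 6 h in VP64_Ctrl became 3 to 5, and the 0 calls in the response of the control populations became 1 with no filter.

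Without the 3 libraries that stood apart, H47_KO minus H47_Ctrl became -1.82 for LIF at 0 h, and at 24 h 0.066 for IL11, -0.17 for OSMR, -0.13 for IL11RA and -0.097 for SOCS3, and OSMR in H47_KO became -0.18 at 24 h against 6 h. VP64_A minus VP64_Ctrl at 0 h became -0.089 for LIF and 0.0057 for OSMR. For CLCF1 at 6 h, H47_KO minus H47_Ctrl became 0.014 with DESeq2 and 0.015 with its size factors in edgeR. With 1 library left out, the log2 fold change spanned -0.13 to 0.11 for IL11RA in H47_Ctrl 6 h against 0 h. It spanned -0.18 to 0.85 for SOCS3 in H47_Ctrl 24 h against 0 h. It spanned -0.13 to 0.26 for OSMR in H47_KO 24 h against 6 h. It spanned -0.95 to 0.28 for IL6, -1.84 to 1.18 for LIF and -0.059 to 0.098 for IL11RA in H47_KO against H47_Ctrl 0 h. It spanned -0.20 to 0.21 for IL11, -0.17 to 0.11 for CLCF1 and -0.052 to 0.15 for SOCS3 in H47_KO against H47_Ctrl 6 h. It spanned -0.35 to 0.017 for LIF, -0.021 to 0.19 for CLCF1, -0.32 to 0.0076 for IL6ST, -0.14 to 0.17 for OSMR, -0.34 to 0.033 for IL11RA and -0.59 to 0.14 for SOCS3 in H47_KO against H47_Ctrl 12 h. It spanned -0.38 to 0.42 for IL11, -0.17 to 0.19 for OSMR, -0.13 to 0.44 for IL11RA and -0.15 to 0.40 for SOCS3 in H47_KO against H47_Ctrl 24 h. It spanned -0.15 to 0.57 for IL6ST in VP64_Ctrl 24 h against 0 h. It spanned -0.19 to 0.085 for OSMR in VP64_Ctrl 24 h against 6 h. It spanned -0.050 to 0.24 for IL11RA in VP64_A 6 h against 0 h. It spanned -0.069 to 0.14 for IL11RA in VP64_A 12 h against 0 h. It spanned -0.27 to 0.011 for IL6ST in VP64_A 24 h against 6 h. It spanned -0.74 to 2.13 for LIF, -0.15 to 0.33 for CLCF1 and -0.19 to 0.0057 for OSMR in VP64_A against VP64_Ctrl 0 h. It spanned -0.11 to 0.34 for IL6, -0.058 to 0.12 for CLCF1, -0.18 to 0.022 for OSMR and -0.14 to 0.19 for IL11RA in VP64_A against VP64_Ctrl 12 h. It spanned -0.0046 to 0.17 for IL6ST, -0.015 to 0.23 for OSMR, -0.20 to 0.00019 for IL11RA and -0.48 to 0.17 for SOCS3 in VP64_A against VP64_Ctrl 24 h. It spanned -0.70 to 2.19 for LIF in the difference of the CRISPRa responses at 6 h.

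With the replicate number as a block, the calls over the 3 times in VP64_A went from 19 to 20 (CLCF1 at 24 h, adjusted p = 0.0495), and the block moved no count by over 1.5 times. The numbers were not taken to pair the samples: deviations of same-numbered libraries had a correlation over 0.1 in 2 of 12 pairs of conditions in each arm (-0.053 to 0.121 in CRISPRko and -0.023 to 0.140 in CRISPRa), and 5 of 12 libraries in each correlated best with their own number. Depth limited LIF, SOCS3 and IL11 before stimulation, where few counts set wide intervals, LIF in VP64_Ctrl at 24 h, and LIFR throughout.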
